A study of Homo sapiens with 6 samples.

Results

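The genes described here are the zinc finger genes of band 19p12, a dense cluster on the short arm of chromosome 19 close to the centromere. They were taken by symbol from a list of 33 names, and all 33 had a row among the 37887 rows of the count table. In the GENCODE v29 annotation of GRCh38 they lay between ZNF253 and ZNF254 at chr19:19865886-24129961, a span of 4.26 megabases, with 18 genes on the plus strand and 15 on the minus strand. Of the 33 genes, 28 had a mean of at least 10 counts over the 6 libraries and are described gene by gene. The cluster was chosen by the measured difference between shPBRM1 and shCTL in these same libraries. That contrast is therefore given for its genes as a description: the calls of the fit across all genes are listed for them, but they are no independent evidence about the cluster.

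RNA-seq was performed on BT-549 cells, an established triple-negative breast cancer (TNBC) line with a mesenchymal character. The sample titles name 3 libraries of control shRNA cells (shCTL) and 3 libraries of cells carrying a PBRM1 shRNA (shPBRM1), while the treatment labels give DMSO for the first group and doxycycline (DOX) for the second. The series design states a stably expressed tet-inducible PBRM1 shRNA vector, with 0.1% DMSO as vehicle or 500 ng/ml DOX to switch it on. Whatever DOX did by itself cannot be told apart from the silencing in these 6 libraries, and the labels do not settle whether the controls carry the PBRM1 shRNA vector or a control one. PBRM1 encodes BAF180, a bromodomain subunit of the PBAF chromatin remodeling complex. The cells were cultured in triplicate and nothing states whether the 3 cultures were independent experiments, so the errors below measure the spread between these cultures only.

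KRAB zinc finger proteins are the largest family of DNA-binding repressors in the human genome. Their C2H2 fingers read DNA sequence, most often in transposable elements, and their KRAB domain recruits the scaffold KAP1 (TRIM28), which brings in the H3K9 methyltransferase SETDB1, HP1 proteins and histone deacetylases. The genes arose by repeated duplication in tandem, and those of 19p12 belong largely to the primate-expanded ZNF91 subfamily, which also has members on 7q11 and 4p16. The clusters are themselves known as domains of H3K9me3 chromatin.

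PBRM1 was counted at 5870, 7619 and 8118 in the shCTL libraries and at 2598, 1591 and 2657 in the shPBRM1 libraries. Its level fell from 158 ± 2.30 CPM to 41.9 ± 1.22 CPM (SD, n = 3 in each group, as for every mean below), a log2 fold change of -1.91 ± 0.027 (SE). CPM are counts scaled to the size of each library with TMM factors. Total counts were between 36429395 and 65096297, and 3 counts, the floor of detection, were worth between 0.0471 and 0.0804 CPM. The mesenchymal marker VIM stood at 621 and 770 CPM in shCTL and shPBRM1. Of the 5 genes that BT-549 cells should lack, ESR1 had 2 counts in 1 library and none in the other 5, PGR had at most 12 counts and PECAM1 at most 18, while CDH1 measured 5.0 and 1.51 CPM and PTPRC 0.797 and 0.132 CPM in shCTL and shPBRM1. The shPBRM1 replicate 1 differed most from its group, its chi-square divided by the degrees of freedom being 21.5 and 24.9 against replicates 2 and 3, which differed from each other by 7.20. Leaving it out gave a median log2 fold change of 0.63 over the 28 genes, against 0.62 with it.

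The zinc finger genes of 19p12 stood higher in shPBRM1 nearly throughout. Summed over the 33 genes, the cluster gave 230, 223 and 236 CPM in shCTL replicates 1, 2 and 3 and 348, 341 and 363 CPM in shPBRM1 replicates 1, 2 and 3. The groups did not overlap, and the ratio of their means was 1.53, or 0.61 on the log2 scale. With edgeR's quasi-likelihood test and an adjusted p under 0.05, 26 of the 28 tested genes were called higher and none lower, where 31.5% of the 15450 genes tested across the table were higher and 33.2% lower. None of the 28 was lower at an unadjusted p under 0.05 either, and DESeq2 called 24 higher and none lower. Since the contrast was known when the cluster was chosen, nothing is read from these shares.

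The log2 fold changes of the 28 genes ran from 0.21 to 1.23, with a median of 0.62 and quartiles of 0.54 and 0.77, beside a median of -0.0080 over all genes tested. The shift was thus moderate and shared, and only ZNF681 and ZNF257 passed a fold change of 2, where 2.87% of all tested genes were over 2-fold higher and 9.68% over 2-fold lower. In 25 of the 28 genes every shPBRM1 library stood above every shCTL library, as in 33.3% of all tested genes. Matched by replicate number, 27 genes were higher in all 3 pairs of libraries, and ZNF99 in 2 of the 3.

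**Figure D1:**
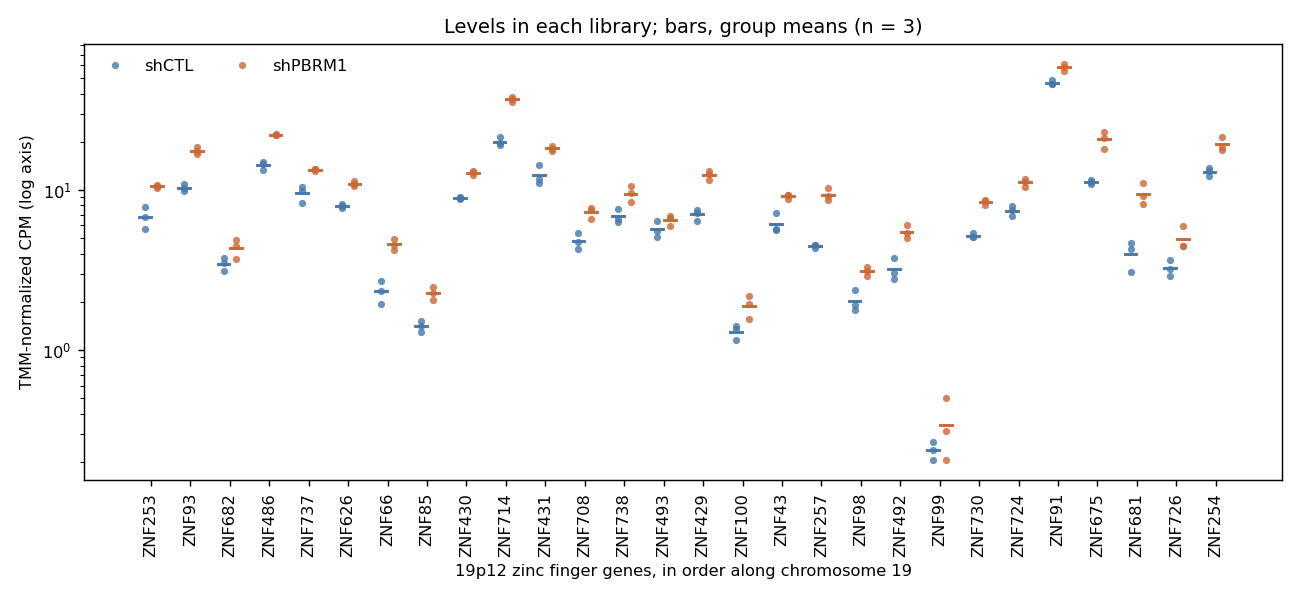
TMM-normalized CPM (log axis) of the 28 genes that averaged at least 10 counts, in order along chromosome 19; each point is 1 library, blue for shCTL and orange for shPBRM1, and each bar is the mean of 3 libraries. The orange points lie above the blue ones in 25 genes, mean levels range from ZNF99, at 0.237 CPM in shCTL, to ZNF91, at 58.3 CPM in shPBRM1, and ZNF682, ZNF493 and ZNF99 are the genes whose groups overlap.

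ZNF91 (chr19:23304991-23395560, minus strand) represses the SVA retrotransposons and was the most abundant gene of the cluster. It measured 46.1, 45.6 and 48.3 CPM in the shCTL libraries and 58.4, 55.2 and 61.3 CPM in the shPBRM1 libraries. All 3 shPBRM1 values lay above all shCTL values, yet the log2 fold change of 0.32 ± 0.051 was among the smallest of the cluster. Per kilobase of exon, the scale on which genes can be compared, ZNF91 stood at 4.49 ± 0.137 CPM per kb in shCTL, ahead of ZNF486 at 3.36 ± 0.207, ZNF737 at 2.69 ± 0.298 and ZNF714 at 2.50 ± 0.133. The last pair of these levels lay within 1 SD of each other, whereas ZNF91 and ZNF486 were further apart than their spread.

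ZNF93 (chr19:19900913-19963464, plus strand), which silences LINE-1 families of the primate lineage, measured 10.3, 9.79 and 10.8 CPM in shCTL and 16.9, 17.5 and 18.4 CPM in shPBRM1. The groups were well apart and the log2 fold change was 0.77 ± 0.056, so that this LINE-1 repressor differed more between the groups than ZNF91 did. ZNF675 (chr19:23525631-23687220, minus strand), also called TIZ, binds TRAF6 and dampens its signaling to NF-κB. It measured 11.3, 11.6 and 10.9 CPM in shCTL and 18.1, 21.0 and 23.1 CPM in shPBRM1, a log2 fold change of 0.88 ± 0.106. The 3 shCTL libraries lay close together and the 3 shPBRM1 libraries were more spread, all of them higher. ZNF431 (chr19:21142024-21196053, plus strand), described as a repressor of the Hedgehog receptor gene PTCH1, measured 14.3, 11.03 and 11.7 CPM against 17.6, 18.01 and 18.9 CPM. Its shCTL replicate 1 was the high one of its group and still lay under all shPBRM1 libraries, and the log2 fold change was 0.57 ± 0.118.

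ZNF681 (chr19:23739195-23758891, minus strand) had the largest difference of the cluster. It measured 3.08, 4.26 and 4.68 CPM in shCTL and 11.04, 8.17 and 9.12 CPM in shPBRM1, a log2 fold change of 1.23 ± 0.22. The lowest shCTL and the highest shPBRM1 library carried the same replicate number, so that the pairs differed by 1.84, 0.94 and 0.96 on the log2 scale. With any 1 of the libraries left out the value stayed between 1.09 and 1.35. ZNF257 (chr19:22052452-22091480, plus strand) measured 4.55, 4.55 and 4.32 CPM in shCTL and 8.60, 10.3 and 9.16 CPM in shPBRM1. Its shCTL libraries were nearly level and its log2 fold change was 1.06 ± 0.079, or 0.996 without shPBRM1 replicate 2, which is just under 2-fold. Close below them came ZNF66 (chr19:20776304-20807322, plus strand), with 2.33, 1.93 and 2.72 CPM against 4.23, 4.52 and 4.94 CPM. Its log2 fold change of 0.97 ± 0.153 passed 2-fold when shCTL replicate 3 (1.11) or shPBRM1 replicate 1 (1.03) was left out.

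ZNF714 (chr19:21082159-21125270, plus strand) combined a high level with a large difference. It measured 19.7, 19.2 and 21.3 CPM in shCTL and 38.1, 35.4 and 36.9 CPM in shPBRM1, a log2 fold change of 0.88 ± 0.054. ZNF429 measured 7.04 ± 0.591 CPM in shCTL and 12.4 ± 0.865 CPM in shPBRM1, a log2 fold change of 0.82 ± 0.092. ZNF730 rose from 5.17 ± 0.168 to 8.43 ± 0.274 CPM (0.71 ± 0.038), and ZNF85 from 1.41 ± 0.119 to 2.26 ± 0.215 CPM (0.69 ± 0.104). These genes lie in different parts of the span, and each had groups that did not overlap.

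Around the middle of the distribution stood genes of the proximal and distal ends alike. At the end away from the centromere, ZNF253 measured 6.79 ± 1.08 CPM in shCTL and 10.5 ± 0.281 CPM in shPBRM1 (log2 fold change 0.62 ± 0.135), and ZNF486 measured 14.3 ± 0.883 and 22.2 ± 0.0802 CPM (0.63 ± 0.052). At the end next to the centromere, ZNF726 measured 3.24 ± 0.367 and 4.97 ± 0.874 CPM (0.62 ± 0.167), and ZNF254, the last of the row, 13.0 ± 0.740 and 19.2 ± 2.0 CPM (0.57 ± 0.097). Between them ZNF708 measured 4.79 ± 0.542 and 7.29 ± 0.576 CPM (0.62 ± 0.115), ZNF43 6.15 ± 0.873 and 9.13 ± 0.295 CPM (0.58 ± 0.117), and ZNF430 8.92 ± 0.126 and 12.8 ± 0.423 CPM (0.52 ± 0.030). All 7 genes were called higher, with groups that did not overlap.

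The smaller differences began with ZNF737, at 9.51 ± 1.05 CPM in shCTL and 13.36 ± 0.228 CPM in shPBRM1 (log2 fold change 0.49 ± 0.095), ZNF738, at 6.84 ± 0.648 and 9.49 ± 1.07 CPM (0.47 ± 0.122), and ZNF626, at 7.94 ± 0.258 and 10.9 ± 0.380 CPM (0.46 ± 0.039). These 3 genes were still called higher with no overlap. ZNF100 was counted at 53, 56 and 68 in shCTL and at 94, 76 and 138 in shPBRM1, 1.31 ± 0.139 and 1.89 ± 0.304 CPM, a log2 fold change of 0.54 ± 0.161. It was not called by DESeq2, nor without shCTL replicate 2 (0.45) or shPBRM1 replicate 3 (0.42).

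ZNF682 measured 3.11, 3.52 and 3.75 CPM in shCTL and 4.90, 3.73 and 4.46 CPM in shPBRM1, a log2 fold change of 0.34 ± 0.139. Its shPBRM1 replicate 2 lay just under the highest shCTL library, so that the groups overlapped. The call was lost under DESeq2, with library size only (0.29) and without shCTL replicate 1 (0.27), shPBRM1 replicate 1 (0.25) or shPBRM1 replicate 3 (0.33). The other 2 genes, ZNF493 and ZNF99, were not called. ZNF493 was well expressed, at 6.43, 5.10 and 5.53 CPM in shCTL and 6.70, 5.99 and 6.89 CPM in shPBRM1, with overlapping groups and the smallest log2 fold change, 0.21 ± 0.115. It was called without shCTL replicate 1 (0.30) or shPBRM1 replicate 2 (0.27), and with a replicate block and offsets for gene GC and length (0.28). ZNF99 was barely expressed, with 10, 10 and 12 counts in shCTL and 30, 8 and 20 counts in shPBRM1. Its log2 fold change of 0.57 ± 0.341 fell to 0.19 without shPBRM1 replicate 1.

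Near-identical copies limit what the counts can separate, since the handling of reads that map to several genes is not given in the sources used here. The share of a gene's 50-base stretches that also occur in transcripts of other genes was 4.81% in the median over the 33 genes. It was far higher for ZNF98 and ZNF492, similar genes on opposite strands, of which 37.6% and 29.4% of stretches occur in the other gene. The share was also high for ZNF724, of which 43.6% of stretches occur in AC092329.3. That annotation overlaps ZNF724 itself, so this sharing is not that of a separate copy. ZNF98 measured 2.01 ± 0.308 and 3.10 ± 0.198 CPM (log2 fold change 0.61 ± 0.133), ZNF492 3.19 ± 0.512 and 5.45 ± 0.519 CPM (0.77 ± 0.150), and ZNF724 7.44 ± 0.509 and 11.2 ± 0.661 CPM (0.58 ± 0.076), in shCTL and shPBRM1. These 3 values are uncertain by gene. Among the 17 reported genes that share under 5% of their stretches, the median log2 fold change was 0.62 and 15 were called higher, beside 31.5% of all tested genes. They too belong to the cluster chosen by this contrast, and what shared reads did to the values was not tested. Counting by strand is not given in the sources used here either, and 23 of the 28 genes overlap an annotated gene on the opposite strand, mostly a pseudogene or an unnamed transcript. The median log2 fold change was 0.62 over these 23 and 0.47 over the other 5.

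The other 5 genes of the list lay under a mean of 10 counts. ZNF99, at 15 counts, and ZNF100, at 80.8 counts, were the nearest above that line, and ZNF728, at 2.50 counts, and ZNF208, at 1.33 counts, the nearest below it. ZNF728 was counted at 0, 1 and 2 in shCTL and at 6, 2 and 4 in shPBRM1, and ZNF208 at 2, 4 and 0 and at 1, 1 and 0. ZNF90, ZNF676 and ZNF723 had mean counts between 0.167 and 1.0. All 5 were at or near the floor of 3 counts in both groups, and no fold change is given for them. The cluster thus held nearly silent genes between expressed neighbors. In the order of the list, ZNF208 lies between ZNF43, with 267 to 593 counts, and ZNF257, with 170 to 584 counts.

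The size of the difference was spread evenly over the cluster. Its median was 0.66 over the 16 reported genes on the plus strand and 0.57 over the 12 on the minus strand. Along the chromosome it was 0.63 in the first 10 genes, 0.58 in the next 8 and 0.62 in the last 10. Across the 28 genes it showed little relation to the level in shCTL (Spearman's rho -0.12), exon length (-0.28), GC content of the transcripts (0.14), the number of C2H2 fingers (-0.14) or the order along the chromosome (0.13). These are descriptions across genes of the same 6 libraries, and such genes are not independent.

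The names select for zinc finger genes, so the protein plan of the members is given as a description. In the longest reading frame of their annotated transcripts, 32 genes held between 9 and 36 C2H2 fingers, with a median of 13 over all 33 genes, and 27 genes matched a pattern for the KRAB A box. ZNF208, which was nearly silent, had 36 fingers, and ZNF91 had 31. ZNF738 held a KRAB A match and 0 fingers in a frame of 137 residues, and it still stood higher in shPBRM1 with the rest.

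Genes that are interspersed with the zinc finger genes, or that flank them, were measured in the same fit. Inside the span lay 76 other rows of the table, of which 7 passed the filter on low counts. Beside 31.5% of all tested genes higher and 33.2% lower, none of the 7 was called lower and 3 were called higher. They were the pseudogenes RPSAP58, at 6.47 ± 0.791 CPM in shCTL and 11.1 ± 0.183 CPM in shPBRM1 (log2 fold change 0.77, adjusted p = 1.35e-07), IPO5P1 (0.54, adjusted p = 7.93e-04) and ZNF849P (0.48, adjusted p = 0.00245). RPSAP58 descends from the ribosomal gene RPSA, and whether its reads can be told apart from those of the parent gene was not tested. The other 4 did not pass: LINC01224 had a log2 fold change of 0.30 (adjusted p = 0.0845), VN1R83P 0.40 (adjusted p = 0.351), RPL34P34 0.33 (adjusted p = 0.556) and BNIP3P17 -0.70 (adjusted p = 0.104). LINC01224 was called without shPBRM1 replicate 1, at 0.39. DESeq2 called the same number, 3 higher and none lower.

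On the side away from the centromere, 5 of the 20 nearest tested genes were higher and 3 lower, against 31.5% and 33.2% of all tested genes. Their median log2 fold change was 0.045. The closest of the 20, the zinc finger gene ZNF506, was lower, at 21.1 ± 0.168 CPM in shCTL and 18.7 ± 0.965 CPM in shPBRM1 (-0.17, adjusted p = 0.0237). In the same flank the zinc finger gene ZNF101 was higher (0.33, adjusted p = 2.86e-04), and ZNF14 was not called (0.22, adjusted p = 0.0686). Across the centromere, 6 of the 20 nearest tested genes were higher and 5 lower, beside the same shares of all tested genes. Their median was 0.065. Without shCTL replicate 1 or shCTL replicate 3, 3 in place of 5 were lower. With a replicate block and offsets for gene GC and length, the median of all genes was 0.11 and 41.2% of all tested genes were higher. The flanks then changed to 11 higher and 1 lower before the span and 10 higher and 3 lower after it. Single flank genes lay within the range of the reported genes of the cluster, which began at 0.21, as TMEM161A (0.49) and FAAP24 (0.73). Others lay far below 0, as TSSK6 (-1.14) and PLEKHF1 (-0.90).

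**Figure D2:**
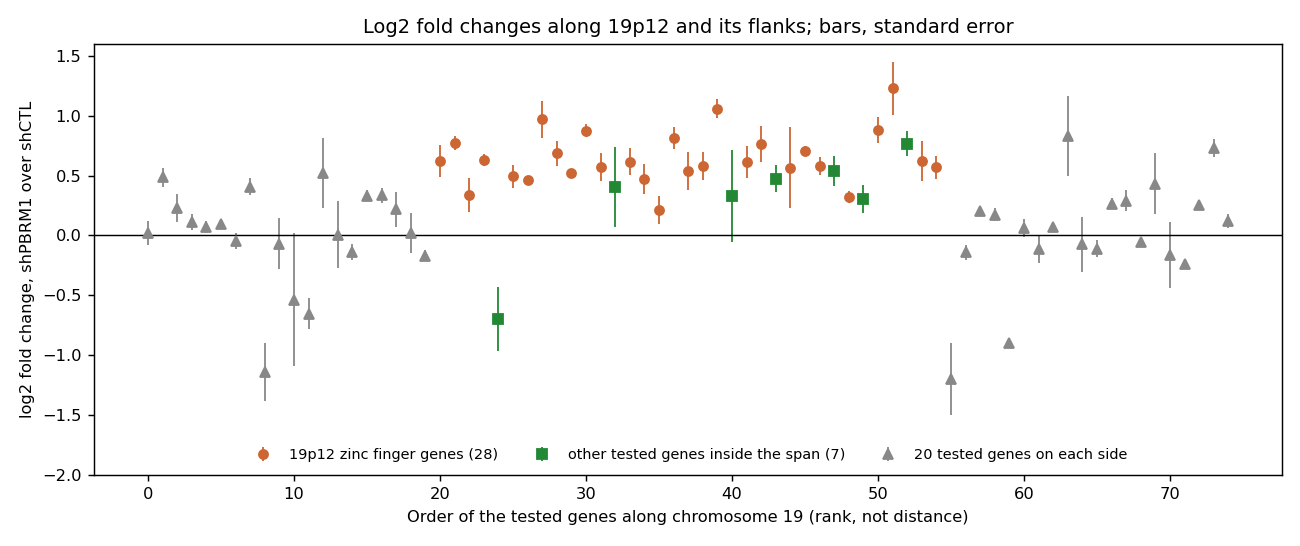
Log2 fold change (shPBRM1 over shCTL, with its standard error) of the tested genes in order along chromosome 19: 28 zinc finger genes of 19p12 (orange circles), the 7 other tested genes inside their span (green squares) and 20 tested genes on each side (gray triangles). The orange points form a band with a median of 0.62, while the gray points scatter around 0 with medians of 0.045 and 0.065.

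The ZNF91 subfamily allowed the same measurement at loci on other chromosomes. These lists were drawn up with earlier results of these data known and are not independent of them. On 7q11, 7 of the 8 tested zinc finger genes were called higher and none lower, against 31.5% and 33.2% of all tested genes, with a median log2 fold change of 0.56. ZNF273 measured 5.0 ± 0.706 CPM in shCTL and 9.95 ± 1.44 CPM in shPBRM1 (0.98, adjusted p = 8.38e-08), ZNF92 7.54 ± 0.652 and 13.7 ± 0.799 CPM (0.87, adjusted p = 4.95e-09) and ZNF680 8.57 ± 1.239 and 14.6 ± 0.433 CPM (0.77, adjusted p = 9.76e-08). ZNF107 (0.58), ZNF736 (0.55) and ZNF138 (0.52) were higher as well. ZNF117 had a log2 fold change of -0.20 (adjusted p = 0.103) and was called lower without shCTL replicate 2, at -0.30. DESeq2 also called 7 higher and none lower.

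On 4p16, all 6 tested zinc finger genes were called higher and none lower, against 31.5% and 33.2% of all tested genes, with a median of 0.66. DESeq2 also called all 6 higher, where 17.9% of all genes in its fit were higher. ZNF732 measured 1.08 ± 0.405 and 2.65 ± 0.598 CPM in shCTL and shPBRM1 (1.27, adjusted p = 3.77e-05), ZNF876P 2.23 ± 0.227 and 4.53 ± 0.436 CPM (1.02, adjusted p = 5.75e-07) and ZNF595 8.32 ± 0.663 and 13.9 ± 1.18 CPM (0.74, adjusted p = 9.96e-08). ZNF721 (0.58), ZNF141 (0.54) and ZNF718 (0.46) followed. All of these but ZNF117, below 0, and ZNF732, the highest, lay between the lowest and highest values of 19p12. At most 1.97% of the 50-base stretches of any 19p12 gene occurred in genes of the other clusters.

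Zinc finger clusters elsewhere on chromosome 19 were mixed. On 19p13.2, 5 of 24 tested genes were higher and 9 lower, against 31.5% and 33.2% of all tested genes. The median was -0.081. ZNF823 (1.17), ZNF878 (1.01), ZNF443 (0.67) and ZNF799 (0.63) were higher, and ZNF763 (-1.10) and ZNF69 (-0.68) were lower. On 19q13.41, 2 of 24 were higher and 12 lower, beside the same shares of all tested genes, with a median of -0.16. The largest changes there were all downward, in ZNF610 (-1.54), ZNF578 (-1.39), ZNF528 (-0.93), ZNF525 (-0.72), ZNF320 (-0.48) and ZNF347 (-0.47). Whether the medians of the clusters differ from each other was not tested.

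**Figure D3:**
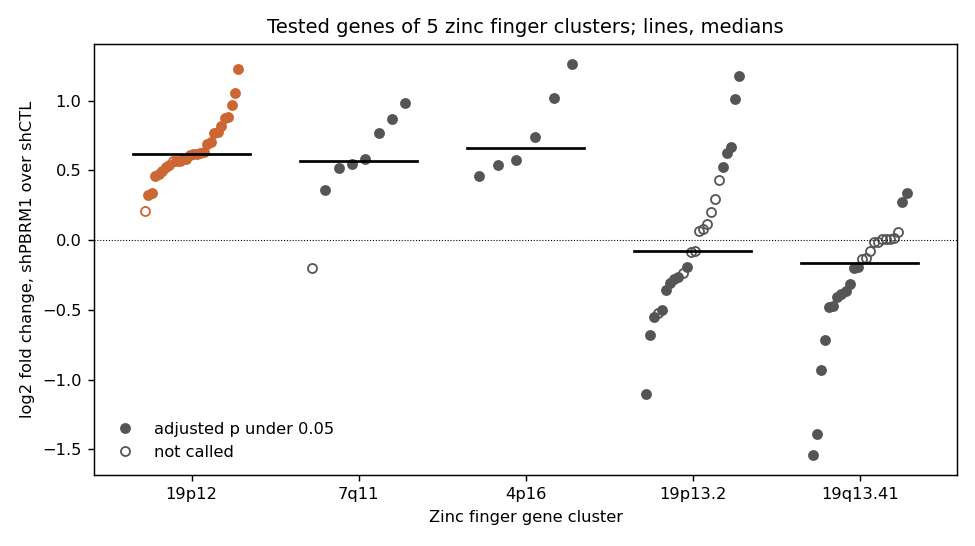
Log2 fold change (shPBRM1 over shCTL) of each tested gene in 5 zinc finger clusters, ordered within each cluster; filled circles were called at an adjusted p under 0.05, open circles were not, and lines are medians. The medians are 0.62 on 19p12, 0.56 on 7q11, 0.66 on 4p16, -0.081 on 19p13.2 and -0.16 on 19q13.41.

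The promoters of the cluster are close copies of each other, and a few are shown because they hold the elements that the members have in common. Windows of 300 bases around the RefSeq start sites, from 250 before to 50 after, were at hand for 27 of the 33 genes, 28 windows in all since ZNF682 has 2. The following stretches run 5′ to 3′ on the gene's strand, from 150 bases before to 30 after the start site (RefSeq, GRCh38.p14). Capitals mark matches to 3 sequences of 8 bases that recur in the cluster: TGTCACTC (the reverse complement of GAGTGACA), TCCAATCA, which contains a CCAAT box, and GCTTCCGG (the reverse complement of CCGGAAGC, with an ETS core). ZNF681 and ZNF257 had the largest differences, ZNF91 the highest level, ZNF208 was nearly silent, and ZNF92 is a relative on 7q11. They lie at chr19:23758862-23759041 (minus strand), chr19:22052334-22052513 (plus strand), chr19:23395442-23395621 (minus strand), chr19:22010914-22011093 (minus strand) and chr7:65373705-65373884 (plus strand).
ZNF681: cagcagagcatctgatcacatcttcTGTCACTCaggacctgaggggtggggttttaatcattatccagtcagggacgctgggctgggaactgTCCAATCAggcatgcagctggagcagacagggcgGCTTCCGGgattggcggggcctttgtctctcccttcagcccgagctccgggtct
ZNF257: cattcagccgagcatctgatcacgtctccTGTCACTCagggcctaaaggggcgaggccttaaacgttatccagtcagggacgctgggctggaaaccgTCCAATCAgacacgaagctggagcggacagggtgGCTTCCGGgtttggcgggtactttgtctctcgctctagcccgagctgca
ZNF91: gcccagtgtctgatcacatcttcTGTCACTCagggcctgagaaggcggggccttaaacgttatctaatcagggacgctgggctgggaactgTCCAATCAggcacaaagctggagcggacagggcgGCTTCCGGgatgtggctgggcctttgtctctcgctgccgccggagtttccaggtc
ZNF208: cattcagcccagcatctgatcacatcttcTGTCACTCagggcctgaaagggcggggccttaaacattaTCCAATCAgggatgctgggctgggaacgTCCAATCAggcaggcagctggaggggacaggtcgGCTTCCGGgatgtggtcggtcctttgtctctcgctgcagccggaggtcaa
ZNF92: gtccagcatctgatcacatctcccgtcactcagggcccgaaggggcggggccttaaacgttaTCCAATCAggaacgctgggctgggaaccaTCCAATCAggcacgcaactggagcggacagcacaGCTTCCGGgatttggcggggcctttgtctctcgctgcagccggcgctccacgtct

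The 3 sequences were picked because they are common in the windows of the members, so their frequency there is a description. TCCAATCA, searched on both strands, occurred in 27 of the 28 windows of 19p12, against 1.54% of 35116 windows of all genes. Its 42 matches all lay on the gene's own strand, between 24 and 88 bases before the start site, and 15 windows held a pair of them. In the stretches above the match begins at position -58 in ZNF681, -53 in ZNF257 and -59 in ZNF91. ZNF208 has it at -82 and -54, so that the nearly silent gene holds it as the expressed ones do.

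GAGTGACA occurred in 25 of the 28 windows, against 1.30% of all windows, with all 34 matches on the opposite strand and between 68 and 172 bases before the start site. CCGGAAGC occurred in 22 of the 28, against 3.71% of all windows, mostly just upstream of the start site, as at -24 in ZNF681 and -25 in ZNF91. ZNF92 on 7q11 carries TCCAATCA at -88 and -59 and CCGGAAGC at -25 in the same order. It also holds GAGTGACA at -166 on the opposite strand, upstream of the stretch printed above. TCCAATCA occurred in 8 of 14 windows on 7q11, 2 of 3 on 4p16, 19 of 25 on 19p13.2 and 0 of 31 on 19q13.41. CCGGAAGC occurred in 5 of 14 windows on 7q11, 2 of 3 on 4p16, 0 of 25 on 19p13.2 and 16 of 31 on 19q13.41. Of the 19p12 genes, ZNF714, ZNF429 and ZNF93 were among those without a match to it. Whether any of these sequences bears on the differences was not tested.

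**Figure D4:**
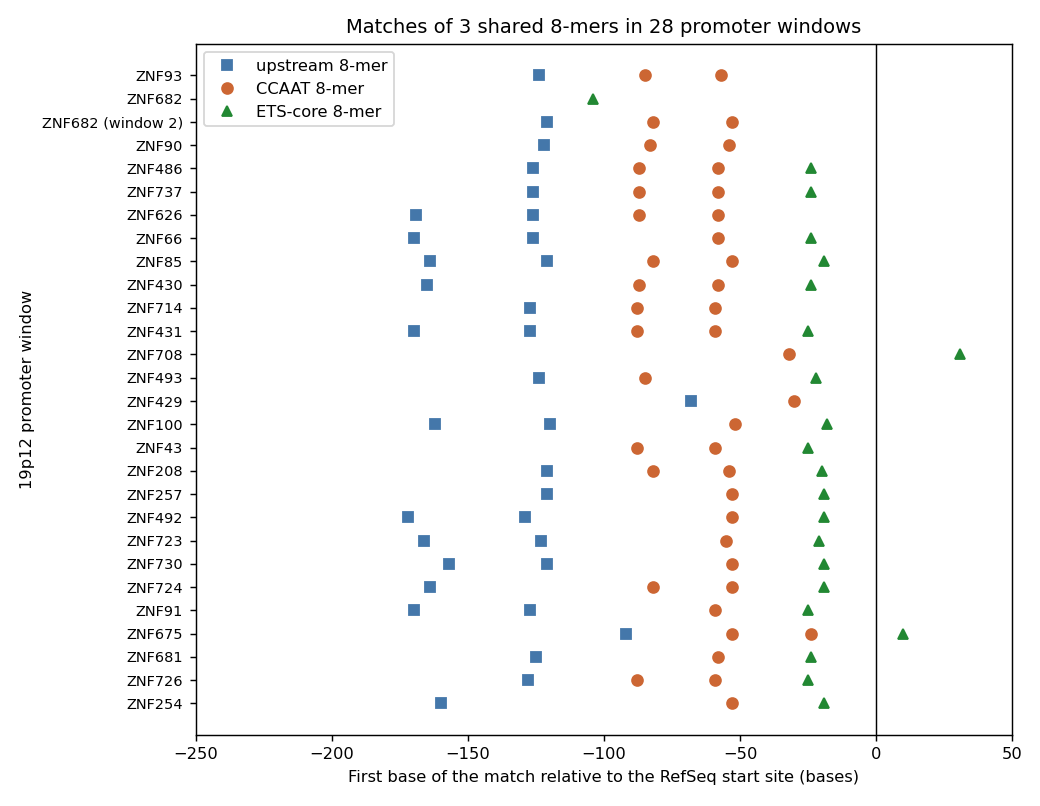
Position of the first base of each match, in bases relative to the RefSeq start site (vertical line at 0), in the 28 promoter windows of 19p12 genes ordered along the chromosome; blue squares mark GAGTGACA, orange circles TCCAATCA and green triangles CCGGAAGC. The matches line up from gene to gene, with TCCAATCA in 27 windows, GAGTGACA in 25 and CCGGAAGC in 22.

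Motifs for other factors were searched on both strands in the same windows. The STAT motif GAS (TTCNNNGAA) was found in 2 of the 28 windows, against 7.66% of all windows, and the interferon motif ISRE in 0 of 28, against 3.57%. The YY1 motif GCCATNTT occurred in 2 windows, against 6.58%, the TATA box (TATAAA) in 3, against 11.5%, and the GC box (GGGCGG) in 21, against 45.0%. Neither the NRF1 motif (5.78% of all windows) nor the E-box CACGTG (7.26%) was found in any of the 28. The windows were a little poorer in CpG than others, with a median of 10 CpG and 56.0% GC against 14 and 58.7%.

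The genes through which KRAB proteins act were expressed in all 6 libraries. Of 10 genes of the KAP1 co-repressor complex, 7 were higher and 1 lower in shPBRM1, against 31.5% and 33.2% of all tested genes. TRIM28 itself, which encodes KAP1, measured 240 ± 6.69 CPM in shCTL and 246 ± 7.14 CPM in shPBRM1 (log2 fold change 0.031, adjusted p = 0.492). With a replicate block and offsets for gene GC and length it was called higher, at 0.27, while the median of all genes was 0.11. SETDB1 measured 39.7 ± 0.551 and 37.4 ± 1.06 CPM (-0.087, adjusted p = 0.119). The HP1 genes CBX5 (0.70), CBX1 (0.64) and CBX3 (0.50) and the deacetylase genes HDAC1 (0.64) and HDAC2 (0.30) were higher, and ATF7IP, which stabilizes SETDB1, was lower (-0.41). In the HUSH complex, which silences young LINE-1 copies, TASOR (-0.55) and MPHOSPH8 (-0.30) were lower and PPHLN1 (0.18) higher, while its partner MORC2 had a log2 fold change of 0.078 (adjusted p = 0.131) and was called higher without shPBRM1 replicate 3 (0.12).

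Among 10 further writers, erasers and readers of H3K9 methylation, 4 were higher and 3 lower, close to the 31.5% and 33.2% of all tested genes. With the block and offsets 7 were higher, beside 41.2% of all tested genes. The methyltransferase genes SUV39H1 (0.77), SUV39H2 (0.40) and EHMT1 (0.14) were higher, and the histone H3.3 chaperone gene DAXX (-0.58), the demethylase gene KDM4C (-0.18) and ZNF274 (-0.38), which itself binds zinc finger gene clusters together with SETDB1, were lower. KDM4C was not called with the block and offsets (-0.038, adjusted p = 0.481). DAXX varied widely in shPBRM1, at 30.7 ± 10.5 CPM against 45.2 ± 0.622 CPM in shCTL, and was not called by DESeq2 (adjusted p = 0.0975). Genes descended from endogenous retroviruses and retrotransposons mostly did not pass. Of 10 tested, PEG10 was higher, at 210 ± 8.30 CPM in shCTL and 335 ± 1.97 CPM in shPBRM1 (0.68). ERVK13-1 was lower, at 6.71 ± 0.722 and 5.14 ± 0.708 CPM (-0.37), and the other 8 were not called. Several of these 8 had low mean counts, as ERVH48-1 (10.8), ERVW-1 (13.3) and RTL1 (19.7), so a missing call says little about them. ERVK3-1 (120) and ERV3-1 (424) had more. ERVK13-1 was not called with the block and offsets (-0.22). Transcripts of the retroelements that ZNF91 and ZNF93 bind were not analysed here.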

How the data were processed

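RNA was isolated from BT-549 cells cultured in triplicate, and poly(A) libraries were made with a stranded kit. For each of the 6 libraries the authors deposited unnormalized read counts by gene symbol, which were used as they are. The submitters' processing notes name CASAVA 1.8.2, STAR 2.7.9a, featureCounts, DESeq2 1.24.0 and GRCh38.p7. The gene annotation, the strand setting and the handling of reads with several hits are not given in the sources used here. Groups and replicate numbers come from the sample titles. Of the 37887 rows, 14 carry dates in place of symbols and were not named.

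Differential expression was analyzed with edgeR 4.0.16 in R 4.3.3: TMM factors, filterByExpr (15450 genes kept), and the quasi-likelihood F-test over all 6 libraries with Benjamini-Hochberg adjustment over all genes tested. Total counts were between 36429395 and 65096297, and 3 counts were taken as the floor. Standard errors come from log2 CPM with a prior of 2 counts. The tests were checked on simulated counts: with 100 genes changed 1.5-fold and 100 changed 2-fold in shPBRM1 vs shCTL, edgeR recovered 87 and 100 of them among 15362 genes, with 11 false calls.

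Gene positions are those of GENCODE v29, matched by symbol for 98.4% of the tested genes, and promoter windows those of RefSeq (GRCh38.p14). Sequence matches were made in Python 3.11.15 with Biopython 1.88. The members, the gene lists and the tests were chosen with earlier results of these data known. The genes named are the members with a mean of at least 10 counts, the 2 nearest on each side of that line, up to 6 genes per other list that were called, by size of change, and the tested genes inside the span. TRIM28, SETDB1, MORC2, ZNF117, ZNF506, the other flank genes named and the uncalled genes of retroviral origin were named after their values were seen.

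Same-numbered libraries deviated together, with correlations of 0.734, 0.593 and 0.419 over 5622 genes, each over 0.1, so the replicate numbers of the titles were taken to pair the samples. Differently numbered libraries gave -0.671 to 0.464, the highest for shCTL replicate 2 with shPBRM1 replicate 3. That value lay above the 0.419 of the third pair, so its pairing is the least certain. The main fit and the standard errors use the group only, and the pairing enters as an alternative. The alternatives were DESeq2 1.42.0, RLE factors, no scaling but library size, no low-count filter, a minimum mean of 50 counts, a replicate block without and with offsets for GC content and length, an adjusted p under 0.001, and each library left out in turn.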

Additional observations from a re-analysis of the deposited data

How the results depend on the processing

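Between 22 and 27 of the 28 genes of 19p12 were called higher under every alternative run and none lower, and these 28 kept a log2 fold change above 0 wherever they were tested. The share of all genes called higher also varied between the alternatives at an adjusted p under 0.05. It was lowest with DESeq2, at 17.9%, and highest with the replicate block plus GC and length offsets, at 41.2%, where 27 of the 28 were called. At least 24 of the 26 genes called were called again in each alternative at an adjusted p under 0.05, and 22 genes were called at an adjusted p under 0.001. The replicate block, which follows the pairing of the titles, changed no call in the cluster (26 called) and gave a median log2 fold change of 0.605. The median was 0.567 with library size only and 0.607 with a minimum mean of 50 counts, and the ratio of summed CPM was 0.561 on the log2 scale with library size only. With that block plus GC and length offsets, the median of the cluster was 0.651 while the median of all genes was 0.11, so that the cluster stood less far above it. With 1 library left out, the median ranged from 0.58 to 0.66 and the ratio of summed CPM from 0.58 to 0.63.

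Counts in the other lists moved more. With the offsets, 1 other gene of the span was lower, 11 genes were higher and 1 lower before the span, 10 higher and 3 lower after it, 2 HUSH genes and 7 other H3K9 genes were higher, and 0 genes of retroviral origin were lower, while KDM4A (0.17) and KDM4B (0.29) turned positive. With no filter on low counts, 5 other genes of the span were higher. With library size only, 2 KAP1 genes were lower, 2 other H3K9 genes higher and 1 gene of 7q11 lower. At an adjusted p under 0.001, 3 genes after the span were lower, 0 HUSH and 2 other H3K9 genes were higher, 0 genes of retroviral origin were lower and 5 genes of 19p13.2 were lower. With 1 library left out, between 3 and 5 genes after the span were lower, 1 or 2 HUSH genes were higher and 0 or 1 genes of 7q11 lower. The cause of these shifts was not tested. At this depth the 5 members near the floor of 3 counts could not be compared.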

Other observations

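Zinc finger genes elsewhere in the genome, taken by a symbol that begins with ZNF and leaving out the members, were called lower more often than higher on most chromosomes. Over all tested genes 31.5% were higher and 33.2% lower. On chromosome 19 outside the cluster, 26 of 227 tested genes were higher and 91 lower, with a median log2 fold change of -0.13. On chromosome 16, 4 of 30 were higher and 16 lower, with a median of -0.35, and on chromosome 3, 0 of 17 were higher and 10 lower, with a median of -0.38. On chromosome 4, which holds the 4p16 genes, 7 of 9 were higher and 2 lower, with a median of 0.54. On chromosome 7, which holds the 7q11 genes, 8 of 31 were higher and 11 lower.

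The sequence TCCAATCA in the promoter window split these genes in the following way, after it had been picked on the members. Of 43 tested ZNF genes outside the cluster that hold it, 18 (41.9%) were higher and 10 (23.3%) lower, with a median of 0.20. These included 6 genes of 7q11 and 2 of 4p16, all higher, and 19 of 19p13.2, of which 4 were higher and 6 lower, with a median of -0.074. Of 357 that do not, 39 (10.9%) were higher and 163 (45.7%) lower, with a median of -0.17. Over all tested genes outside the cluster the shares were closer, with 36.5% of 222 genes that hold it higher and 32.9% of 10927 that do not. The genes with the sequence lie partly on 7q11, 4p16 and 19p13.2, so position and sequence cannot be told apart here, and no test was made.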
